A study of Homo sapiens with 6 samples.

Results

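Pseudogenes with appreciable read counts in A549, a human line grown from a lung adenocarcinoma, were compared between libraries that overexpress GPX3 and vector controls, each pseudogene beside its parent gene where the symbol names one. A row of the deposited count table was a member if its class contained the word pseudogene, its mean raw count over the 6 libraries was 50 or more, and it lay on neither X nor Y. Of 15224 pseudogene rows among 58735 genes, 3158 had a count in any library and 249 met the rule. Another 13 pseudogenes reached that mean but lay on X or Y. Members were thus chosen by their mean count, so their levels are given as a description, without a test.

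The 6 libraries came from total RNA of cultured A549 cells. The labels outline a preparation for small RNAs, whereas 97.2% to 97.6% of the deposited counts of each library lie in protein-coding genes, mitochondrial ones included. A group of 3 is titled OE_GPX3, with genotype and treatment given as OE, and a group of 3 is titled Vector, with both given as WT. The labels do not give the construct, its promoter, whether a line is a clone, the time after transfer or whether replicates were grown apart. The spread behind each p-value is that of these libraries, and it may be technical. GPX3, a secreted glutathione peroxidase, stood at 1233 ± 178 CPM in OE_GPX3 libraries and 36.4 ± 2.91 CPM in Vector libraries (SD, n = 3 each), where CPM is counts per 1000000 counts of a library, scaled between libraries by TMM. Total counts ran from 15831693 to 18751815 per library. All 7 markers of A549 cells and epithelium were present at a mean of at least 54.8 CPM, with summed levels of 36139 to 43854 CPM in OE_GPX3 libraries and 31978 to 34370 CPM in Vector libraries. All 4 markers of alveolar type 2 cells were under 1 CPM, as were 8 of 9 markers of blood, fibroblasts and endothelium.

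A processed pseudogene is a copy of a spliced messenger RNA that was pasted back into the genome, and an unprocessed one is a duplicate of a gene that has lost its function. A unitary pseudogene is a disabled gene with no working copy, and fragments of the mitochondrial chromosome inserted into the nucleus are annotated as pseudogenes too. Genes with abundant messenger RNA, above all those of ribosomal proteins, have many processed copies. Because a copy can match its parent base for base, a short read may fit both places, and the count of each then depends on how the counting assigns such reads. The sources used here do not name the aligner, the counter or their treatment of such reads, and every count below is a count assigned to a locus.

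By class, 117 of the 249 were processed, 78 transcribed unprocessed, 22 unprocessed, 19 transcribed processed, 10 transcribed unitary, 2 polymorphic and 1 unitary. They lay on all 22 autosomes, with 31 on chromosome 7, 24 on chromosome 1 and 22 on chromosome 3. The symbol gave a parent for 140 members, which had 115 distinct parents: 3 members were copies of mitochondrial genes, 43 of ribosomal protein genes and 94 of other genes. Of the 109 without such a parent, 39 name one in the table's description, 22 of them a ribosomal protein. All 249 members had enough counts to be tested among the 14458 genes that passed edgeR's filter on low counts.

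Together the members took 0.677% ± 0.0481 of all counts in OE_GPX3 libraries and 0.688% ± 0.0114 in Vector libraries (SD, n = 3 each; exact two-sided permutation p = 0.8). The share was 0.635%, 0.730% and 0.666% in the OE_GPX3 libraries, against 0.676%, 0.698% and 0.689% in the Vector libraries. OE_GPX3 replicate 1 was the lowest and OE_GPX3 replicate 2 the highest of the 6, so the Vector libraries lay inside the range of the OE_GPX3 libraries. Without OE_GPX3 replicate 1 the difference of -0.0104 percentage points turned to 0.0104. The median of the members' mean counts was 146. The 10 highest members held 44.0% of all member counts, 24 members had a mean count of 1000 or more and 90 had one under 100.

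Between the groups, 2 of the 249 members passed an adjusted p under 0.05 in the quasi-likelihood test of edgeR, adjusted by Benjamini-Hochberg over all 14458 genes, 1 lower and 1 higher in OE_GPX3 libraries. Over all genes tested 0.263% passed, 0.166% lower and 0.0968% higher, so 2 members of 249 is a small count set against a small background. MTATP6P1, a nuclear copy of the mitochondrial ATP synthase gene MT-ATP6, fell, and STAG3L1, a partial copy of the meiotic cohesin gene STAG3, rose. In bulk RNA, fewer cells with a transcript and less of it per cell cannot be told apart. At an unadjusted p under 0.05 there were 33 members (13.3%), against 14.6% of all genes tested. DESeq2 on the same genes called 2 members among 116 genes, a background of 0.802%: MTATP6P1 and AC010343.1, a processed pseudogene, while it gave STAG3L1 no adjusted p. In every DESeq2 count and share given here, a gene without an adjusted p counts as not called. How many members lacked one is not given.

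The groups did not overlap for 15 members higher and 38 lower in OE_GPX3 libraries. Over all genes tested these shares were 8.62% and 9.90%, so the members' 53 (21.3%) stand beside 18.5% in all. Of the members 106 had a log2 fold change above 0 and 143 below (42.6% above, against 47.4% of all genes tested). Their median log2 fold change was -0.05, beside -0.02 over all genes tested. The quartiles were -0.20 and 0.13, and the range was -1.99 for TCEA1P2 to 1.02 for STAG3L1.

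**Figure D1:**
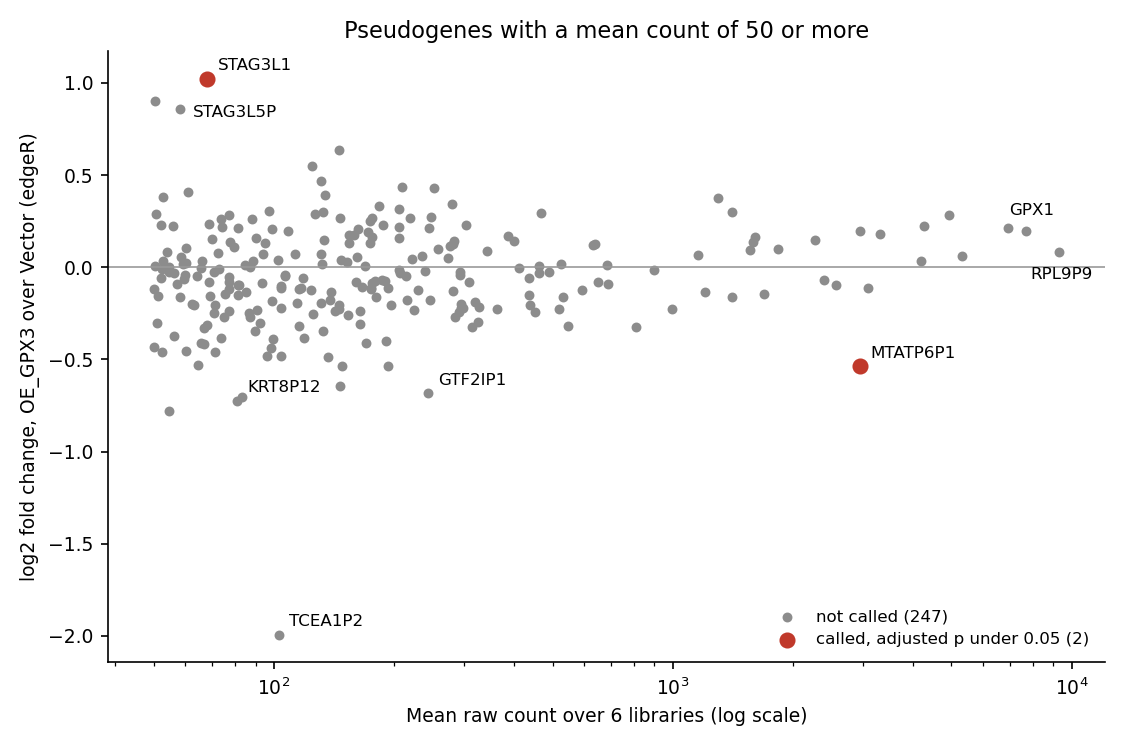
The horizontal axis is a member's mean raw count over the 6 libraries on a log scale, and the vertical axis is its log2 fold change, OE_GPX3 over Vector, for all 249 pseudogenes. Red points are the 2 members called by edgeR, STAG3L1 at 1.02 with a mean count of 68.2 and MTATP6P1 at -0.54 with a mean count of 2953; TCEA1P2 at -1.99 was not called.

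By kind of copy, ribosomal protein copies had 25 members above 0 and 18 below, with a median log2 fold change of 0.03 and 0 of 43 called by edgeR (0 by DESeq2, 7 at an unadjusted p under 0.05). The 22 ribosomal protein copies known only from the description had 4 above 0 and 18 below, a median of -0.19 and 0 called by edgeR, 1 by DESeq2 and 5 at an unadjusted p under 0.05. The 94 other copies had 38 above 0, 56 below and a median of -0.06, with 0 called by edgeR or DESeq2 and 8 at an unadjusted p under 0.05. Ribosomal protein genes themselves had 48 above 0 and 29 below, a median of 0.03 and 0 of 77 tested called by edgeR or DESeq2, with 1 at an unadjusted p under 0.05. All 110 parents that could be tested gave 0 calls in edgeR, 4 in DESeq2, 17 at an unadjusted p under 0.05 and a median of 0.01. Over all genes tested, 14.6% had an unadjusted p under 0.05, and 0.263% were called by edgeR and 0.802% by DESeq2. The unadjusted shares of the 5 lists, in the order above, were 16.3%, 22.7%, 8.51%, 1.30% and 15.5%.

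MTATP6P1 (ENSG00000248527, unprocessed) lies at chr1:633696-634376 on the plus strand of GRCh38, an unspliced copy of 681 bases near the start of chromosome 1. MT-ATP6 encodes subunit a of the mitochondrial ATP synthase, through which protons pass. The copy aligned to MT-ATP6 over all 681 bases at 98.5% identity, with 10 substitutions and no gap. Counted from the first base of the transcript, with the base of MT-ATP6 first, these are G19A, C129T, A151C, A175G, A192G, A334G, C417T, C534A, C549T and C642T. Of all 50-base windows of the copy, 46.7% occur exactly in MT-ATP6. The stretch of 120 bases with the most differences, 4 of the 10, is shown to let the copies be told apart base by base. It spans bases 73 to 192 of both transcripts, chr1:633768-633887 in the copy and chrMT:8599-8718 in the parent, both plus strand, from the GENCODE 29 transcripts. Capitals mark the bases that differ.
MTATP6P1: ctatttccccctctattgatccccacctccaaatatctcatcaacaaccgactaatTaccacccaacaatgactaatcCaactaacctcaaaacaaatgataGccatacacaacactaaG
MT-ATP6: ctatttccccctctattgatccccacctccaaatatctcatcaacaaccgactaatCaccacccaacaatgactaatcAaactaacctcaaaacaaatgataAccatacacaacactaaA

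MTATP6P1 had counts of 2712, 2014 and 2245 in the OE_GPX3 libraries, against 3874, 3516 and 3359 in the Vector libraries. Scaled, these were 152, 119 and 145 CPM in OE_GPX3 libraries, against 218, 181 and 205 CPM in Vector libraries. Every OE_GPX3 library lay below every Vector library. The mean was 139 ± 17.6 CPM in OE_GPX3 libraries and 201 ± 19.2 CPM in Vector libraries (SD, n = 3 each), 0.689-fold. The log2 fold change was -0.54 (standard error 0.11, 95% interval -0.76 to -0.32, edgeR adjusted p = 0.0225). The call was lost after a correction for GC content (log2 fold change -0.42, edgeR adjusted p = 0.189), on the deposited FPKM with limma (adjusted p = 0.282), and without OE_GPX3 replicate 2 or 3 or Vector replicate 2 or 3, where edgeR's adjusted p ran from 0.0800 to 0.116. The direction was the same in each of these.

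MT-ATP6 itself was far more abundant and differed less. It had 3177, 2753 and 3111 CPM in OE_GPX3 libraries, against 3671, 2984 and 3145 CPM in Vector libraries. OE_GPX3 replicates 1 and 3 lay above Vector replicate 2, so the groups overlapped. Its log2 fold change was -0.12 (standard error 0.11, edgeR adjusted p = 0.627). As a percent of the MT-ATP6 count, MTATP6P1 stood at 4.78%, 4.31% and 4.68% in OE_GPX3 libraries, against 5.95%, 6.05% and 6.52% in Vector libraries. This ratio, taken within a library and so free of scaling between libraries, did not overlap between the groups. Its log2 difference was -0.43 (p = 0.1 in the exact two-sided permutation test, the smallest that 3 against 3 libraries allow).

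The same insertion on chromosome 1 holds copies of other mitochondrial genes. MTND2P28, a copy of the complex I gene MT-ND2 at chr1:629640-630683, had 136, 150 and 144 CPM in OE_GPX3 libraries, against 164, 148 and 146 CPM in Vector libraries. MTCO1P12, a copy of the cytochrome c oxidase gene MT-CO1 at chr1:631074-632616, had 44.4, 34.0 and 37.3 CPM in OE_GPX3 libraries, against 43.9, 38.1 and 41.2 CPM in Vector libraries. Both overlapped between the groups, with log2 fold changes of -0.09 each (standard errors 0.10 and 0.12, edgeR adjusted p = 0.684 and 0.755). Relative to their parents they differed by 0.04 and -0.02 on the log2 scale (p = 0.7 and 0.8 in the exact two-sided permutation test). MTND1P23, MTCO2P12 and MTCO3P12 of the same insertion had mean counts of 3.83, 1.83 and 0.667, and MTATP8P1 had 0 in all 6 libraries. Of 394 rows named as copies of mitochondrial protein or ribosomal RNA genes, 374 had no count, 17 had a mean above 0 and under 10, and these 3 alone reached 50. MTATP6P1 shares exon positions with MTATP8P1 and MTCO3P12, which hold almost no counts.

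All 15 protein-coding and ribosomal RNA genes tested of the mitochondrial chromosome had a log2 fold change below 0, with a median of -0.12. Of these, 0 were called by edgeR or DESeq2. At an unadjusted p under 0.05 there were 2 (13.3%), against 14.6% of all genes tested. Every OE_GPX3 library lay below every Vector library for 1 of the 15 (6.67%, against 9.90% of all genes tested), and the groups overlapped for the other 14. The chromosome took 6.34% ± 0.186 of counts in OE_GPX3 libraries and 7.08% ± 0.382 in Vector libraries (SD, n = 3 each; exact two-sided permutation p = 0.1). Its part in the value of MTATP6P1 was not tested beyond the ratio above. The 3 copies together took 0.0314% ± 0.00227 of counts in OE_GPX3 libraries and 0.0403% ± 0.00299 in Vector libraries (SD, n = 3 each; exact two-sided permutation p = 0.1).

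**Figure D2:**
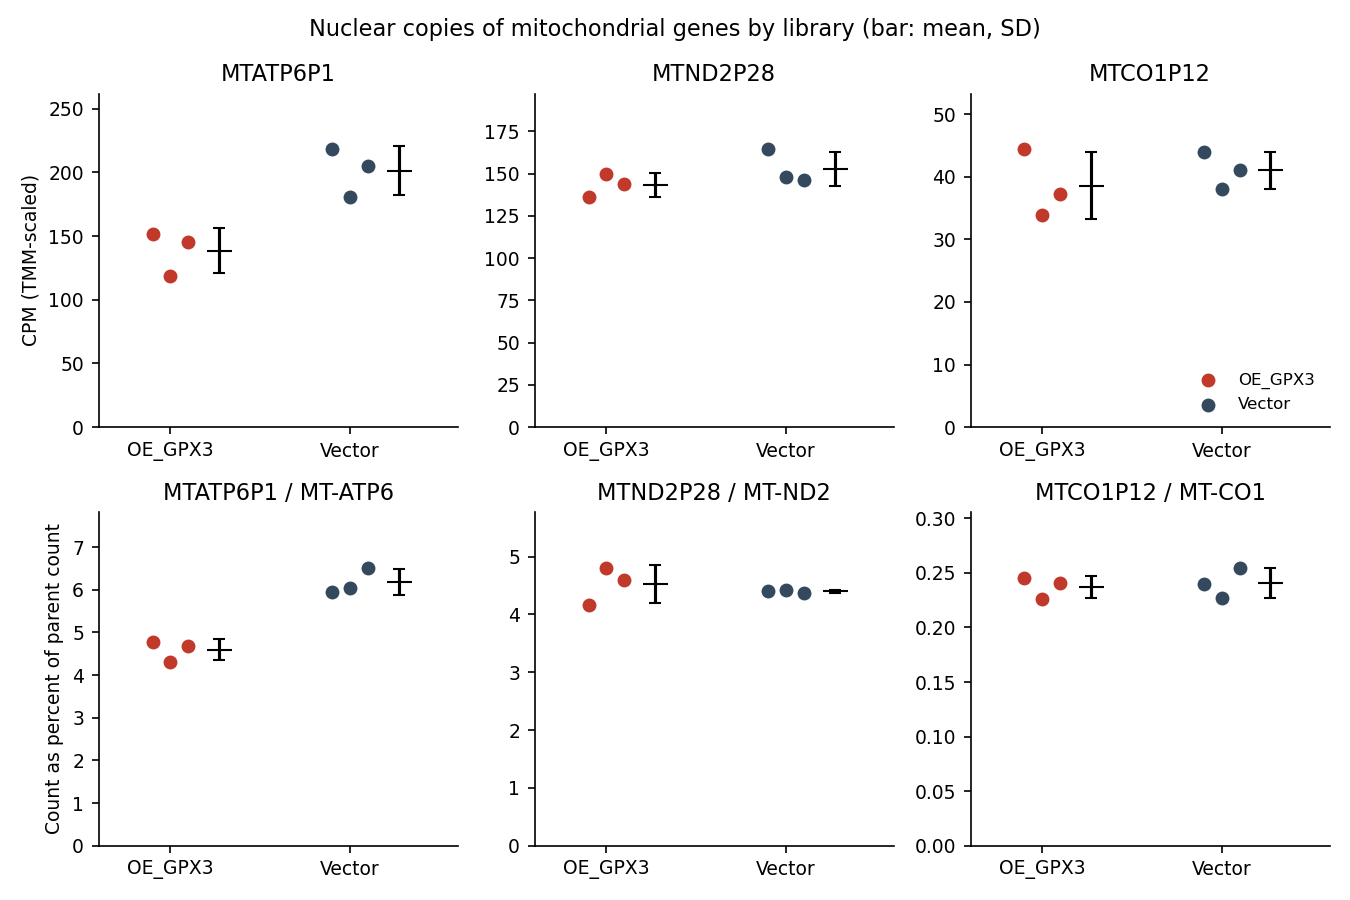
Upper panels show CPM and lower panels show the count as a percent of the parent's count for MTATP6P1, MTND2P28 and MTCO1P12, 1 point per library, OE_GPX3 left of Vector, with the mean and SD (n = 3) as bars. MTATP6P1 lies lower in all 3 OE_GPX3 libraries on both scales, while the points of MTND2P28 and MTCO1P12 overlap between the groups.

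STAG3L1 (ENSG00000205583, transcribed unprocessed, chr7:75359194-75395383, plus strand) is 1 of 5 members derived from STAG3, a cohesin subunit of meiotic cells. It had counts of 103, 104 and 62 in the OE_GPX3 libraries, against 36, 55 and 49 in the Vector libraries. Scaled, these were 5.77, 6.13 and 4.02 CPM in OE_GPX3 libraries, against 2.03, 2.83 and 2.99 CPM in Vector libraries. The groups did not overlap. The mean was 5.31 ± 1.13 CPM in OE_GPX3 libraries and 2.62 ± 0.515 CPM in Vector libraries (SD, n = 3 each), 2.03-fold. The log2 fold change was 1.02 (standard error 0.23, 95% interval 0.55 to 1.49, edgeR adjusted p = 0.0394). The call was lost with total counts as the only scaling (log2 fold change 0.96, edgeR adjusted p = 0.0519), after the GC correction (0.94, adjusted p = 0.210), on log2(FPKM + 1) with limma (0.65, adjusted p = 0.282), and without OE_GPX3 replicate 2 or any 1 of the Vector libraries, where the log2 fold change ran from 0.87 to 1.14 and edgeR's adjusted p from 0.0628 to 0.358. It shares exon positions with TRIM73 on its own strand, whose log2 fold change was 0.20 (edgeR adjusted p = 0.763), and with PMS2P2 on the other.

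The other STAG3-like members, which were looked at as a family after their values were seen, did not share 1 direction. STAG3L5P (chr7:100336079-100351900) had 3.87, 4.60 and 4.73 CPM in OE_GPX3 libraries, against 1.58, 3.13 and 2.50 CPM in Vector libraries. Its groups did not overlap either, at a log2 fold change of 0.86 (standard error 0.25, edgeR adjusted p = 0.118). STAG3L2 had 0.13, STAG3L4 -0.20 and STAG3L3 -0.48, with groups that overlapped and edgeR adjusted p values of 0.689, 0.626 and 0.333. STAG3L3 had 4.26, 5.07 and 5.83 CPM in OE_GPX3 libraries, against 8.85, 4.01 and 8.36 CPM in Vector libraries, so Vector replicate 2 lay below every OE_GPX3 library. STAG3 itself had a log2 fold change of -0.03 (edgeR adjusted p = 0.968), and STAG3L1 shares 9.01% of its 50-base windows with it.

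Of the 50-base windows of STAG3L1, 89.1% occur exactly in STAG3L3, and the 2 aligned at 99.7% identity over 1005 bases with 3 differences. A stretch of 120 bases is shown because it is the same in both, base for base: chr7:75364633-75364752 on the plus strand in STAG3L1 and chr7:73000362-73000481 on the minus strand in STAG3L3 (GRCh38, GENCODE 29 transcripts). No capitals appear because no base differs.
STAG3L1 and STAG3L3: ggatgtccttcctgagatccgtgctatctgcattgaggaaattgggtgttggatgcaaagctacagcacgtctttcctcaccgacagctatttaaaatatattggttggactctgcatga

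Reads from such stretches have 2 possible origins in these loci alone, and 63.6% of the windows of STAG3L2 also occur in STAG3L3, so the levels of STAG3L1, STAG3L2 and STAG3L3 are uncertain. STAG3L5P shares 3.40% of its windows with STAG3L3, and STAG3L4 shares none with another member. Summed over the 5 members the level was 39.1, 39.3 and 37.9 CPM in OE_GPX3 libraries, against 33.4, 37.0 and 36.6 CPM in Vector libraries. The sum did not overlap between the groups, 38.8 ± 0.761 CPM in OE_GPX3 libraries and 35.7 ± 1.96 CPM in Vector libraries (SD, n = 3 each; exact two-sided permutation p = 0.1). It was formed after the values were seen and includes STAG3L1 and STAG3L5P, so it is not a result apart from theirs.

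**Figure D3:**
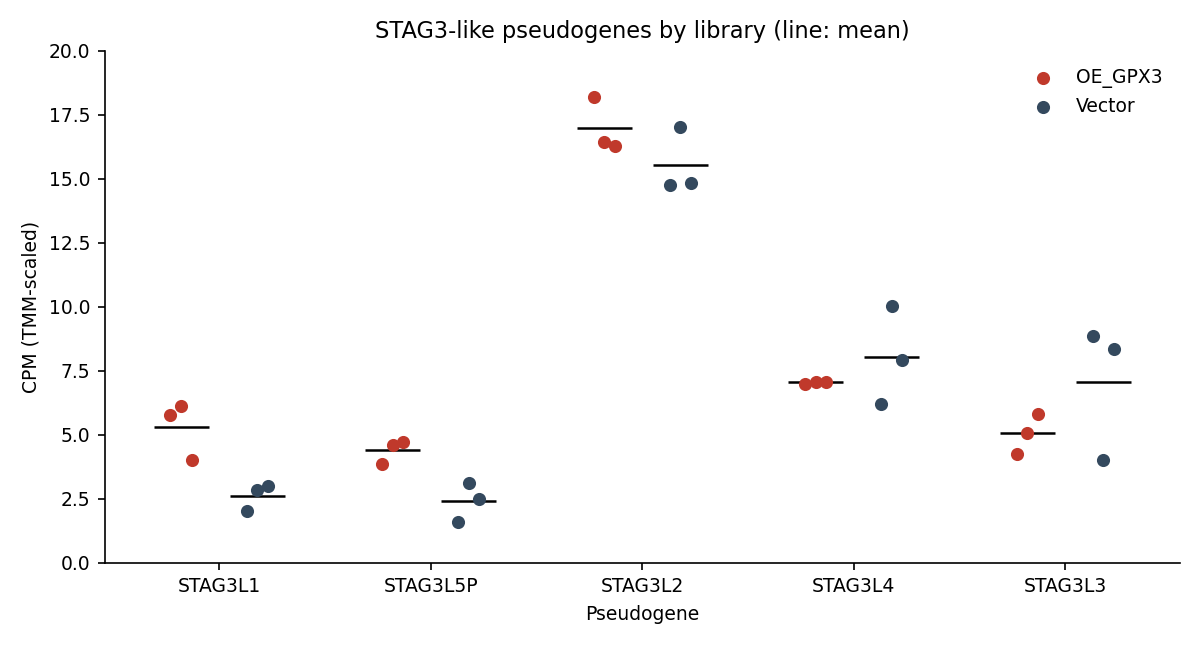
CPM of the 5 STAG3-like pseudogenes, 1 point per library and a line at the mean, OE_GPX3 (red) left of Vector (dark). STAG3L1 and STAG3L5P lie higher in all OE_GPX3 libraries, STAG3L2 and STAG3L4 overlap, and STAG3L3 has 2 Vector libraries above and 1 below the OE_GPX3 libraries.

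Among members whose groups did not overlap, the highest log2 fold changes after STAG3L1 and STAG3L5P were those of DDX12P, AL590867.2 and NSUN5P1, none of them called. DDX12P, a relative of the helicase gene DDX11, had 9.07, 8.43 and 8.23 CPM in OE_GPX3 libraries, against 5.36, 5.86 and 6.41 CPM in Vector libraries (log2 fold change 0.55, edgeR adjusted p = 0.158), beside 0.14 for DDX11. AL590867.2, described as a copy of RPL27A, had 0.47 beside 0.04 for RPL27A. NSUN5P1, a copy of an RNA methyltransferase gene, had 0.44 beside 0.14 for NSUN5 (edgeR adjusted p = 0.245 and 0.206 for these 2 members). NSUN5P1 shares 7.91% of its windows with NSUN5.

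The lowest log2 fold changes among members whose groups did not overlap were those of CRYBB2P1, KRT8P12, LRRC37A4P, AC010343.1 and SMG1P1, none of them called by edgeR. CRYBB2P1 had 2.58, 2.30 and 2.01 CPM in OE_GPX3 libraries, against 4.17, 3.80 and 3.91 CPM in Vector libraries (log2 fold change -0.78, edgeR adjusted p = 0.135). Its parent by name, the lens crystallin gene CRYBB2, was at 0 in all 6 libraries. No alignment to it was found on the same strand for the longest transcript of CRYBB2P1, which has 1 exon. No other sequence of CRYBB2P1 was compared. AC010343.1 had 6.83, 6.48 and 6.35 CPM in OE_GPX3 libraries, against 11.4, 10.2 and 9.16 CPM in Vector libraries (log2 fold change -0.64, edgeR adjusted p = 0.0773). Its adjusted p was 0.0490 with DESeq2 and ran from 0.0265 to 0.619 over 13 alternative settings. LRRC37A4P had -0.70 (edgeR adjusted p = 0.125) and SMG1P1, a copy of the kinase gene SMG1 of nonsense-mediated decay, had -0.54 (edgeR adjusted p = 0.154), beside -0.13 for SMG1.

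LRRC37A4P was 1 of 3 LRRC37 members, a family grouped after the values were seen. LRRC37A16P and LRRC37BP1 had log2 fold changes of -0.44 and -0.26 (edgeR adjusted p = 0.287 and 0.456). They share under 3% of 50-base windows with each other or with LRRC37A4P. Their summed level was 17.6, 14.8 and 17.1 CPM in OE_GPX3 libraries, against 23.6, 21.1 and 21.7 CPM in Vector libraries, without overlap (p = 0.1 in the exact two-sided permutation test). The 6 FAM86 members ranged from -0.34 to 0.21 and the 4 WASH members from -0.07 to 0.23. Sums of 5 families, all formed after the values were seen, were compared in this test. The p was 0.1 for the STAG3L and LRRC37 sums, 0.2 for FAM86 and for the GTF2I copies, and 0.8 for WASH, with 0.1 the smallest that 3 against 3 libraries allow.

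Among the 10 highest members, MTATP6P1 alone was called. RPL9P9, a copy of the ribosomal protein gene RPL9, was the highest, with counts of 8968, 10776 and 8147 in the OE_GPX3 libraries, against 9031, 10343 and 8694 in the Vector libraries. Its groups overlapped (log2 fold change 0.08, standard error 0.11, edgeR adjusted p = 0.731). GPX1, the cytosolic glutathione peroxidase, is a member because the table's annotation classes it as a polymorphic pseudogene. It had 393, 519 and 519 CPM in OE_GPX3 libraries, against 389, 414 and 447 CPM in Vector libraries. OE_GPX3 replicate 1 lay below 2 of the Vector libraries, and the log2 fold change was 0.20 with a 95% interval of -0.03 to 0.42 (edgeR adjusted p = 0.405). Without that library it was 0.32 (edgeR adjusted p = 0.0435), and after the GC correction it was 0.02 (edgeR adjusted p = 0.968). These were the highest and the lowest of the values under the 13 alternatives, and under the others the adjusted p was over 0.05.

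AC008038.1, described as an elongation factor 1 gamma sequence, came next, with 383, 472 and 440 CPM in OE_GPX3 libraries, against 350, 355 and 410 CPM in Vector libraries (log2 fold change 0.22, edgeR adjusted p = 0.342). EEF1G, the gene of that factor, is listed at 0 in all 6 libraries. AC008038.1 lies inside CHCHD3 and shares exon positions with it on the same strand, and CHCHD3 had a log2 fold change of -0.02. The remaining members among the 10 highest were RPS28P7, RPS2P5, RPL13AP5, EEF1A1P5, RPLP0P6 and ANXA2P2, with log2 fold changes of 0.06, 0.29, 0.22, 0.03, 0.18 and -0.11 and edgeR adjusted p values from 0.265 to 0.954. With all of them the groups overlapped. RPS28P7 turned to -0.09 after the GC correction and to -0.00082 with total counts alone, and EEF1A1P5 to -0.03 with total counts alone.

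Several copies held more counts per length than their parents. Lengths in the table equal the summed exon positions of all transcripts for 58724 of 58735 genes and for all 249 members, 717 bases for RPL9P9 but 5022 for RPL9, so a parent with many transcripts is set low on this scale. RPL9P9 averaged 749 FPKM, fragments per 1000 bases of that length and 1000000 fragments, over the 6 libraries, and RPL9 58.7 FPKM. RPL9P9 also had more raw counts, 188%, 197% and 191% of the RPL9 count in OE_GPX3 libraries, against 168%, 171% and 178% in Vector libraries. That ratio did not overlap between the groups, at a log2 difference of 0.16 (p = 0.1 in the exact two-sided permutation test). RPS28P7, whose 210 bases occur without a mismatch in RPS28, averaged 1455 FPKM beside 58.9 FPKM for RPS28. Of 136 pairs whose parent had counts, 26 copies stood above their parent in FPKM and 110 below, with a median of 19.4% of the parent. The parents of another 4 members, DUXAP10, DUXAP9, CRYBB2P1 and TEKT4P2, had 0 counts in all libraries.

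Over the 134 pairs in which both genes could be tested, the median difference in log2 fold change, copy minus parent, was -0.03, with 57 pairs above 0 and 77 below. The sign was the same in copy and parent in 82 pairs (61.2%). Pearson's r across the pairs was 0.28 and Spearman's rho 0.27, a description across genes that share libraries, and in many pairs reads. In 10 pairs the difference exceeded 0.50 in size. Over 16 pairs of named members the ratio of copy to parent count was compared within libraries by the exact permutation test, which cannot go below p = 0.1 with 3 against 3. Among the 10 highest members, MTATP6P1, RPL9P9, RPLP0P6 and ANXA2P2 reached 0.1 in this test. RPS2P5 had 0.2, RPS28P7 and RPL13AP5 0.3, and EEF1A1P5 0.6. Among other named pairs, KRT8P12, SSR4P1 and CIDECP reached 0.1 in this test. TCEA1P2 had 0.2, SMG1P1 0.3, GTF2IP1 0.4 and NSUN5P1 0.5, and the ratios of these overlapped between the groups. Unnamed pairs such as RPS7P1 and RPL3P4 also reached 0.1 (log2 differences 0.16 and -0.22). A ratio without overlap is thus not particular to the named pairs, and its share over all pairs is not given here.

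**Figure D4:**
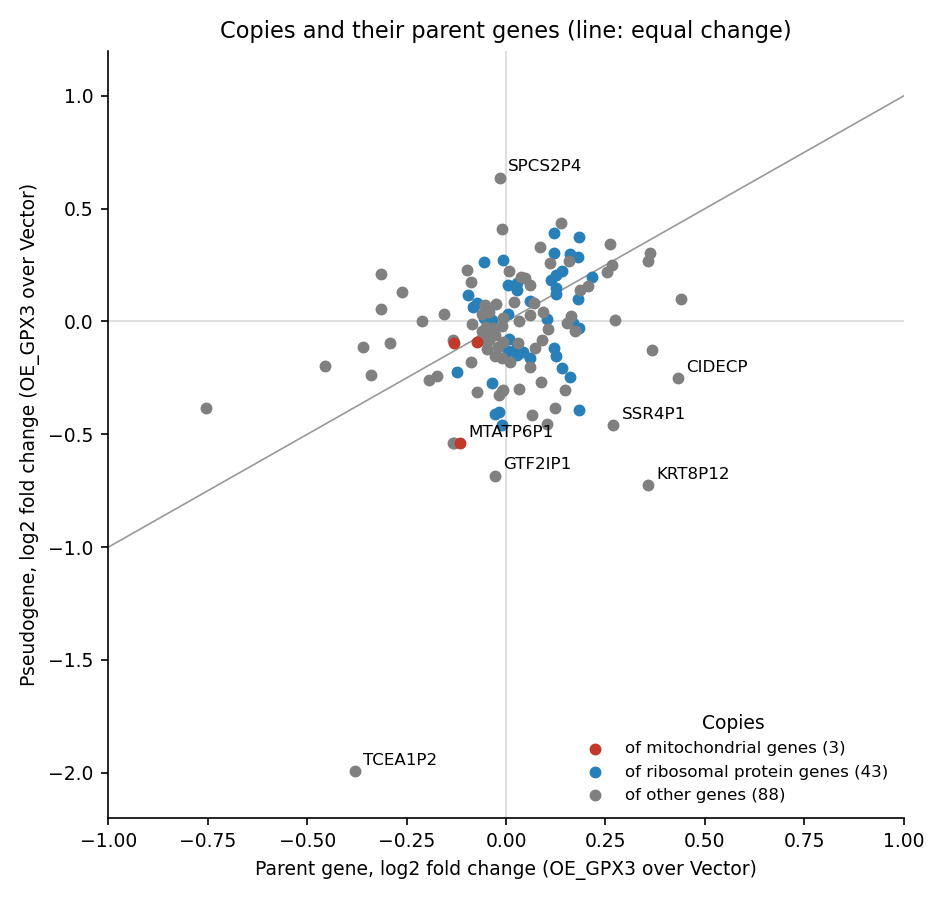
Each point is a pair, with the parent's log2 fold change (OE_GPX3 over Vector) on the horizontal and the copy's on the vertical axis, coloured by the parent's kind, and a line where both are equal. Most of the 134 pairs lie near the origin, and TCEA1P2, KRT8P12, SSR4P1, CIDECP, GTF2IP1 and MTATP6P1 lie below the line.

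KRT8P12 and its parent had opposite signs. Keratin 8 is an abundant filament protein of simple epithelia. KRT8P12 (chr3:160565447-160569248, plus strand) had 2.63, 4.24 and 3.63 CPM in OE_GPX3 libraries, against 5.69, 5.55 and 6.11 CPM in Vector libraries. The groups did not overlap (log2 fold change -0.72, standard error 0.21, edgeR adjusted p = 0.124). KRT8 had 14678, 19822 and 16645 CPM in OE_GPX3 libraries, against 13302, 12541 and 14096 CPM in Vector libraries, also without overlap (log2 fold change 0.36, edgeR adjusted p = 0.159). The log2 ratio of copy to parent differed by -1.10 (p = 0.1 in the exact two-sided permutation test). KRT8P12 was named for its fall and for the size of its difference from the parent, so this ratio repeats that choice. KRT8P3, another copy, had 0.27 (edgeR adjusted p = 0.467).

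In its longest transcript, the only sequence of it compared, KRT8P12 can be told from KRT8 almost everywhere. Identity was 86.1% over 1461 aligned positions, and 0.297% of the transcript's 50-base windows occur in the parent. A stretch of 120 bases with 16 differences, close to the mean rate of the alignment, shows this. It lies at chr3:160567989-160568108 on the plus strand in the copy and at chr12:52904732-52904851 on the minus strand, in coding sequence, in KRT8 (GRCh38, GENCODE 29 transcripts). Capitals mark differing bases. An exon position of KRT8P12 is shared with KPNA4 on the opposite strand, whose log2 fold change was -0.23 (edgeR adjusted p = 0.331), and no source used here says whether strand was used in counting.
KRT8P12: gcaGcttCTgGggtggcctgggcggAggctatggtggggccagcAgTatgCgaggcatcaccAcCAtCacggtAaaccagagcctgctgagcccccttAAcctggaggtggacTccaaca
KRT8: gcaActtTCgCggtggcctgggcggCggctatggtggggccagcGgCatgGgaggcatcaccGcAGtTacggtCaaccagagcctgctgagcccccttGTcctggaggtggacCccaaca

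The largest difference from a parent belonged to TCEA1P2, a processed copy of the elongation factor gene TCEA1 with 99.7% identity, and Vector replicate 2 set much of it. TCEA1P2 had counts of 26, 31 and 56 in the OE_GPX3 libraries, against 97, 355 and 52 in the Vector libraries. Vector replicate 2 stood far above the other 5, and Vector replicate 3 lay below OE_GPX3 replicate 3. The log2 fold change was -1.99 (standard error 0.89, 95% interval -4.41 to 0.42, edgeR adjusted p = 0.409), beside -0.38 for TCEA1 (edgeR adjusted p = 0.113). Without Vector replicate 2 it was -0.93 (edgeR adjusted p = 0.647).

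GTF2IP1, a copy of the transcription factor gene GTF2I, showed the reverse arrangement. It had counts of 198, 181 and 168 in the OE_GPX3 libraries, against 367, 154 and 395 in the Vector libraries. Vector replicate 2 was the lowest of the 6, and the other Vector libraries were the highest. The log2 fold change was -0.68 (standard error 0.45, edgeR adjusted p = 0.540), and without Vector replicate 2 it was -1.04 (edgeR adjusted p = 0.00339). GTF2IP4, which holds 93.8% of the 50-base windows of GTF2IP1, had -0.06. SPCS2P4, a copy of a signal peptidase gene at 99.6% identity, also varied within groups, with counts of 109, 193 and 208 in the OE_GPX3 libraries, against 87, 227 and 49 in the Vector libraries.

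The longest transcripts of SSR4P1 and CIDECP have no 50-base window in common, on the same strand, with the parent their symbol names. SSR4P1 had a log2 fold change of -0.46 (edgeR adjusted p = 0.376) beside 0.27 for SSR4, a subunit of the translocon-associated complex. CIDECP had -0.25 (edgeR adjusted p = 0.522) beside 0.43 for CIDEC, a lipid droplet protein (edgeR adjusted p = 0.124). The ratios to the parents did not overlap between groups, with log2 differences of -0.71 and -0.67 (p = 0.1 each in the exact two-sided permutation test). Both pairs were named for the size of their difference in log2 fold change, so these ratios repeat that choice.

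How much sequence a copy shares with its parent varied over the whole range. Of 140 pairs, 9 copies had every 50-base window in the parent, 62 matched over their whole transcript at 98% identity or more, and 14 shared no window. Each copy was taken by its longest transcript. The median absolute difference in log2 fold change from the parent was 0.24 over 11 pairs with no shared window and 0.24 over 31 pairs above 0 and up to 20%. It was 0.16 over 31 pairs up to 50%, 0.09 over 40 pairs up to 80% and 0.16 over 21 pairs above 80%. Copies that share more also had more counts, with a median mean count of 87.0 in pairs with no shared window and 244 in those above 80%, and the part of depth in the order was not tested. Among pairs with a mean copy count of 200 or more, the median absolute difference was 0.09 over 35 pairs with at least 50% of windows shared and 0.14 over 19 pairs with fewer. Among pairs under 200 it was 0.19 over 26 pairs and 0.21 over 54 pairs.

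**Figure D5:**
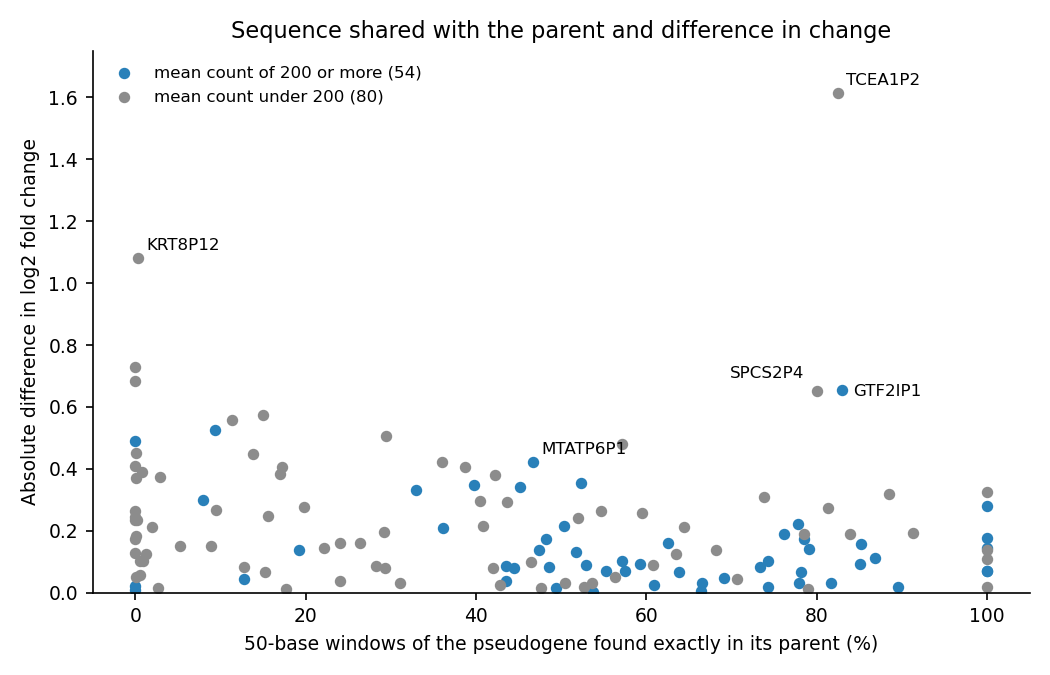
The horizontal axis is the percent of a pseudogene's 50-base windows found exactly in its parent, and the vertical axis is the absolute difference in log2 fold change between them, for 134 pairs coloured by the copy's mean count. Pairs with a mean count of 200 or more (blue) mostly lie low, and TCEA1P2, at 82.5% of windows, is the highest at 1.61.

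The 13 unitary and polymorphic members, by the table's classes, ranged from -0.24 for CUTALP to 0.43 for FER1L4, with 0 called by edgeR and 0 by DESeq2. Of the 13, 1 had an unadjusted p under 0.05, against 14.6% of all genes tested. FER1L4 had 21.8, 12.9 and 15.4 CPM in OE_GPX3 libraries, against 15.3, 11.3 and 10.8 CPM in Vector libraries, and OE_GPX3 replicate 2 lay inside the Vector range (edgeR adjusted p = 0.262). TP73-AS1, a long RNA antisense to the p53 relative TP73, had 22.5, 24.0 and 26.6 CPM in OE_GPX3 libraries, against 22.5, 21.2 and 22.4 CPM in Vector libraries (log2 fold change 0.14, edgeR adjusted p = 0.611).

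Positions were shared with other genes as well as sequence. Exon positions of 77 members are also exons of another gene, on the same strand for 36 and on the opposite strand for 54, and 86 members lie wholly inside the span of another gene. The 2 members just inside the count limit, DPY19L2P3 and TEKT4P2, had mean counts of 50 and log2 fold changes of -0.43 and -0.12. The 2 pseudogenes just outside it, RPL10AP6 and PHC1P1, had mean counts of 49.8 each and log2 fold changes of 0.03 and 0.04.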

How the data were processed

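RNA of 6 A549 libraries was sequenced, 3 in each group by title. The authors deposited raw whole-number counts per gene and FPKM values, 1 column per library. The build was hg38, per the submitters' processing notes, and the aligner, counter, strand setting and FPKM scaling are unnamed in the sources used here. All 249 members have the same start, end and strand in GENCODE release 29, whose transcripts gave sequences and GC content.

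Counts were fitted with edgeR 4.0.16 (filterByExpr, minimum count 10 and total 15; TMM; robust quasi-likelihood test, two-sided, Benjamini-Hochberg over all genes) in R 4.3.3. Alternatives used DESeq2 1.42.0, limma 3.58.1 on log2(FPKM + 1) at a mean of 0.5 FPKM or more (this scale understates changes of low genes), other scalings, no filter, a GC correction, a replicate block and each library left out. The main edgeR fit was tested on simulated counts. The parent rule, the window share and the permutation test were checked on cases with known answers. The alternative fits and the BLAST identity were not tested in this way. Shares and copy-to-parent ratios were compared by exact permutation over libraries. Identity came from BLAST 2.17.0, and windows were 50 bases. For copies and parents, the longest transcript of the copy was compared with all transcripts of the parent, on the same strand. Other exons of a copy were not compared.

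A parent was read from the symbol without its last P and digits. The parent of AC010343.1 is not reported here. Named members were MTATP6P1, all called members, the 10 with the highest counts, the 5 largest rises and 5 largest falls without overlap, the 5 pairs that differed most and the 2 on either side of the count limit. SPCS2P4, KRT8P3, GTF2IP4, FER1L4, CUTALP, TP73-AS1, the DUXA copies and the families were added after their values were seen. Members and lists were chosen with earlier results of these data known. Intervals are 95% and cover the spread between libraries. The biological coefficient of variation was 0.11.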

Additional observations from a re-analysis of the deposited data

How the results depend on the processing

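The count of members called was 2 with RLE size factors, no filter, DESeq2 and a minimum mean count of 20, and 3 with the replicate block. It was 1 with total counts alone, with a minimum of 200 and without the mitochondrial copies, and 0 on FPKM and after the GC correction. Leaving out 1 library gave 0 to 15 members called. There were 15 without OE_GPX3 replicate 1, where 657 of 14707 genes tested were called. The count was 1 without OE_GPX3 replicate 3 (STAG3L1), Vector replicate 1 (MTATP6P1) or Vector replicate 2 (GTF2IP1), among 12, 116 and 4 genes called. It was 0 without OE_GPX3 replicate 2 or Vector replicate 3. Over all genes the 38 calls became 68 with total counts alone, 129 with no filter, 116 with DESeq2, 1 on FPKM and 4 after the GC correction, and 1 to 657 with 1 library left out. The cause was not tested. With total counts alone the median of all genes moved to -0.08 and that of the members to -0.11. The members' median was -0.013 at a minimum of 200 and ran from -0.069 to -0.014 with 1 library left out. The median difference from the parent ran from -0.038 to 0.0025, above 0 only without Vector replicate 3, and the difference in the share of counts from -0.0367 to 0.0104 percentage points. The log2 ratio of MTATP6P1 to MT-ATP6 ran from -0.46 to -0.38.

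Of 41 genes followed over 13 settings, 32 never changed sign. After the GC correction RPS28P7 turned to -0.091, ANXA2 to 0.097, EEF1A1 to 0.018, GTF2I to 0.051 and RPL9 to 0.086. With total counts alone RPS28P7 turned to -0.00082 and EEF1A1P5 to -0.034. With 1 library left out the log2 fold change ran from -0.014 to 0.15 for RPL9P9, -0.029 to 0.15 for RPS28P7, -0.21 to 0.20 for EEF1A1P5, -0.29 to 0.23 for TEKT4P2, -0.077 to 0.027 for ANXA2, -0.12 to 0.016 for EEF1A1, -0.13 to 0.11 for GTF2I and -0.28 to 0.0055 for SMG1. The log2 ratio to the parent ran from -0.079 to 0.18 for EEF1A1P5 and from -0.48 to 0.19 for DPY19L2P3.

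Deviations from the group mean correlated at 0.38, 0.03 and 0.25 between same-numbered libraries, against -0.31 to 0.10 between libraries of different number. The deviations of a group sum to 0 for each gene, so these correlations are not independent of each other. OE_GPX3 replicate 2 correlated better with Vector replicate 3 (0.10) than with its own number. The labels do not say that the numbers pair libraries. The main fit took them as unpaired, and whether they are paired is unknown. With the replicate number as a block, 231 genes and 3 members were called, AC010343.1 beside MTATP6P1 and STAG3L1. Depth limits what can be said of members under a mean count of 100, and reads that fit several loci could not be followed.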

Other observations

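A further 340 autosomal pseudogenes with a mean count under 50 passed the filter on low counts. Of these 0 were called by edgeR and 24 (7.06%) had an unadjusted p under 0.05 in edgeR, against 14.6% of all genes tested. DESeq2 also called 0, but that count carries no weight here. It gave no adjusted p to STAG3L1, which has more counts, so these genes may have had none either. Their median log2 fold change was -0.06 and their median standard error 0.39, beside a median standard error of 0.17 for the 249 members.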
